A study of Mus musculus with 9 samples.

Results

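The p300 peak list from MYCN-driven T-cell lymphoma of the mouse thymus is described here gene by gene. Its members were all distinct peaks (chromosome, start and end) on chromosomes 1 to 19, X and Y, which gave 15646 of the 282301 peaks in the 7 lists of the series. p300, encoded by Ep300, is a lysine acetyltransferase and a large coactivator. It is brought to promoters and enhancers by DNA-bound transcription factors, acetylates histones there, among them lysine 27 of histone H3, and has a close paralogue, CBP (encoded by Crebbp). In T cells it is known as a partner of factors that respond to receptor signals, such as CREB, NFAT and AP-1, and of Notch through the Mastermind proteins.

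The samples were cells of MYCN-driven lymphoma taken from C57BL/6J thymus; the labels do not give the transgene's promoter, the age of the mice or whether animals were pooled. ChIPmentation, in which a transposase adds the sequencing adapters to chromatin still bound to the antibody, was done with 7 antibodies (p300, EZH2, SUZ12, H3K27me3, H3K27ac, H3K4me3 and N-MYC) and 1 library each, and 2 input libraries complete the 9 samples. The inputs were not analysed here. With 1 library per antibody there is no replicate check and no p-value. The read depth is unknown, and a gene without a peak is a gene without a call, not a gene shown to lack p300. Intervals below are 95% Wilson intervals on shares unless named otherwise; they cover counting error only and treat peaks or genes as independent.

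A promoter peak is one whose summit lies within 1 kb of the start of a protein-coding gene. By this rule 8507 of 21775 protein-coding genes carried a p300 promoter peak. Of these, 6 are shown as sequence, from 250 bases before to 50 after the start, because they stand for the kinds of promoter the list holds. Cfap20, Rfx1 and Dnajc16 are among the 10 promoters with the strongest peaks, Junb has the strongest promoter peak among signal-responsive factors, Ikzf1 encodes the lymphoid factor Ikaros, and Lck encodes the proximal kinase of the T-cell receptor. Capitals mark the motifs searched on both strands: CGGAAG (core of ETS sites), GGGCGG (GC box of SP and KLF factors), CACGTG (the E-box of MYC and USF proteins), TGACGTCA (CREB and ATF), CCAAT (NF-Y), TGTGGT (RUNX), TGACTCA (AP-1) and TATAAA. Adjoining or overlapping matches, such as GGGCGG and CGGAAG sharing bases in Cfap20, appear as 1 run. Sequences and positions are from RefSeq, assembly GRCm38.p6, each printed 5′ to 3′ along the strand of the gene. The windows are chr8:95434820-95435119 (minus strand) for Cfap20, chr8:84978699-84978998 (minus strand) for Junb, chr8:84066586-84066885 (plus strand) for Rfx1, chr4:141790595-141790894 (minus strand) for Dnajc16, chr11:11685675-11685974 (plus strand) for Ikzf1 and chr4:129573592-129573891 (minus strand) for Lck.
Cfap20: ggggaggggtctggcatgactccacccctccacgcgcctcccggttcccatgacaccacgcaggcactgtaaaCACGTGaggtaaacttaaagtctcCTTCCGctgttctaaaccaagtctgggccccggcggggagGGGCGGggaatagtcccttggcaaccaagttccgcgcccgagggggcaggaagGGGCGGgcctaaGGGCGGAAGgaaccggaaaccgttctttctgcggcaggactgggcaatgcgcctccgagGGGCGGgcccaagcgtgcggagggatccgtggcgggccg
Junb: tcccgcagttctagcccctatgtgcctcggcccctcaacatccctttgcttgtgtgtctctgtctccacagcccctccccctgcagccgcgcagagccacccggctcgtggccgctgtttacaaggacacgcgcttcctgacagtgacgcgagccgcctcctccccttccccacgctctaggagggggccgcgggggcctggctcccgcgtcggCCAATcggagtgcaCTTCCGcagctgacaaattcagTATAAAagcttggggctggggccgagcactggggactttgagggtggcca
Rfx1: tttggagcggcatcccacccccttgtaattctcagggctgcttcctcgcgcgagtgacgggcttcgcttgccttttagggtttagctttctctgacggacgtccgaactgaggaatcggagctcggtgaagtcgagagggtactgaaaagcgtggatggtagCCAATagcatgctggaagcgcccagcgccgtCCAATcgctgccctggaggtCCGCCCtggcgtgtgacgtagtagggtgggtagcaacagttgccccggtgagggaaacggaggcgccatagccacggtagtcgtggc
Dnajc16: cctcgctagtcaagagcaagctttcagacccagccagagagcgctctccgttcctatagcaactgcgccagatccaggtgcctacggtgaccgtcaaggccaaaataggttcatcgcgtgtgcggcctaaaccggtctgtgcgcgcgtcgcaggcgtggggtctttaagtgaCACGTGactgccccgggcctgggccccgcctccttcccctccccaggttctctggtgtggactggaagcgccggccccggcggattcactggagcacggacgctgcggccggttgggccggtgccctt
Ikzf1: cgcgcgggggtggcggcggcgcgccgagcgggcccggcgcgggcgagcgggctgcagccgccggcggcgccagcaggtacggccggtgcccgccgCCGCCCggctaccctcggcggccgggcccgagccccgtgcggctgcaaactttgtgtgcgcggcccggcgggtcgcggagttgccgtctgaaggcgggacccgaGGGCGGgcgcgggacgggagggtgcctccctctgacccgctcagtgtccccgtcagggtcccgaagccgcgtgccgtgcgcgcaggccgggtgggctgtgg
Lck: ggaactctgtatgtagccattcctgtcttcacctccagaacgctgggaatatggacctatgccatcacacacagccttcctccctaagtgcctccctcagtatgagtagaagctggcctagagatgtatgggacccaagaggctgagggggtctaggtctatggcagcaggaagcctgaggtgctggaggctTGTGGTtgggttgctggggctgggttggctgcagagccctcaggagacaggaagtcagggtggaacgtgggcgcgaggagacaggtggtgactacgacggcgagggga

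The highest p300 fold enrichment within 1 kb of these starts was 14.96 for Cfap20, 11.1 for Junb, 20.8 for Rfx1, 16.9 for Dnajc16, 9.49 for Ikzf1 and 5.61 for Lck. Fold enrichment is the authors' ratio of signal over background at a peak. Of the 8 motifs, the Cfap20 window held the E-box, the ETS core and the GC box, and had 25 CpG dinucleotides. The Ikzf1 window held the GC box alone and 52 CpGs. The Lck window shown held the RUNX-type match alone and 7 CpGs, and has no GC box in these letters. Another listed start of Lck, at chr4:129558372 with a p300 fold of 3.78, had a window with the GC box alone. A match describes the letters of a window and is not a site shown to be bound.

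Each p300 peak was placed once, by its summit, in a promoter, else in the body of a protein-coding gene, else between genes. Promoters held 9643 peaks (61.6%, 60.9 to 62.4%), gene bodies 3669 (23.5%, 22.8 to 24.1%) and intergenic sequence 2334 (14.9%, 14.4 to 15.5%). Promoter peaks were stronger and wider: their median fold was 4.77 and median width 760 bp, against 3.90 and 390 bp in gene bodies and 3.99 and 410 bp between genes. The list followed the start site closely. Within 250 bp of a start lay 37.5% of all p300 summits, with a median fold of 5.15, 1877 peaks lay in the next 250 bp (4.45), and 2.40% lay beyond 100 kb (3.90).

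The promoter share of p300 lay between those of N-MYC (70.8%) and EZH2 (59.0%), next to that of H3K4me3 (61.1%, 60.4 to 61.8%), whose interval overlapped that of p300. It was far above that of H3K27ac, the mark p300 can write, at 14.4% (14.2 to 14.6%). The H3K27ac list is also the longer, with 87072 peaks. SUZ12 had 32.3% and H3K27me3 4.94% at promoters.

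**Figure D1:**
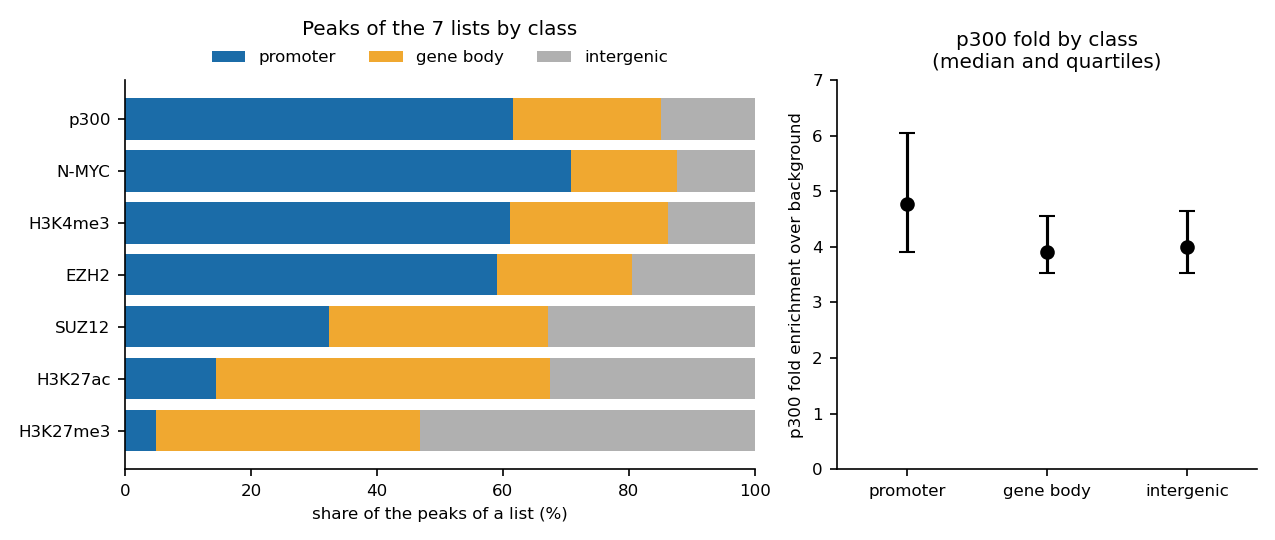
Left, share of each list's peaks (x axis, %) in promoters, gene bodies and intergenic sequence for the 7 lists (y axis); right, p300 fold enrichment over background (y axis) by class, points being medians and bars the quartiles. The p300 bar (61.6% promoter) sits between N-MYC (70.8%) and EZH2 (59.0%), and p300 promoter peaks have a median fold of 4.77.

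What else lay under a p300 peak depended on its class. H3K4me3, the mark of active promoters, overlapped (by at least 1 bp) 98.4% of p300 promoter peaks, 58.2% (56.6 to 59.8%) of those in gene bodies and 46.4% (44.4 to 48.5%) of intergenic ones. H3K27ac differed far less, at 98.1, 96.6 and 95.7%. N-MYC overlapped 64.4% (63.4 to 65.3%) at promoters, 29.1% (27.6 to 30.6%) in gene bodies and 33.2% (31.4 to 35.2%) between genes. EZH2 overlapped 70.5, 17.4 and 10.9%. SUZ12 and H3K27me3, the other Polycomb features, met between 0.627 and 2.09% of p300 peaks in any class. At promoters the median p300 fold was 5.38 on an N-MYC peak and 4.02 away from one.

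Distal p300 peaks split by H3K4me3. Of the intergenic ones 45.8% (43.7 to 47.8%) carried both H3K4me3 and H3K27ac and 49.96% (47.9 to 52.0%) H3K27ac without H3K4me3, with median p300 folds of 4.15 and 3.87. N-MYC was on 42.8% of the former and 25.2% of the latter. In gene bodies the shares were 57.0% and 39.5%. Peaks with neither mark made up 3.599% between genes, 2.23% in gene bodies and 0.529% at promoters.

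At gene level, the 8507 genes with a p300 promoter peak were 39.1% of protein-coding genes, and their highest promoter peak had a median fold of 5.27. N-MYC promoter peaks were called at 33.1% of the same genes and H3K4me3 promoter peaks at 49.8%, and summits of H3K27ac lay there in 50.2% and of EZH2 in 44.8%. The share with p300 is the background for the counts of genes below. Among the p300 genes, 97.0% also had an H3K4me3 summit within 1 kb of a start, 96.3% an H3K27ac summit, 80.1% (79.3 to 81.0%) an EZH2 summit and 77.7% (76.8 to 78.6%) an N-MYC summit. In the other direction, 91.7% (91.0 to 92.3%) of N-MYC genes, 76.1% of H3K4me3 genes and 69.9% of EZH2 genes had p300. Of 9901 genes with both H3K4me3 and H3K27ac summits within 1 kb of a start, 1867 (18.9%, 18.1 to 19.6%) had no p300 promoter call. The summits of a gene need not share a start. Some promoters are shared: 1314 peaks (13.6% of promoter peaks) lay within 1 kb of starts of 2 or more genes, with a median fold of 5.50 against 4.65 where 1 gene was in reach, so genes are not independent of each other in these counts.

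The strongest promoter peaks belonged to genes of several kinds. Rfx1, a winged-helix factor that binds X-box promoters, had the highest fold of the list (20.8). Others of the top 10 included the kinase gene Dyrk1a (18.1), Dnajc16 (16.9), the cyclin gene Ccne2 (16.4), the CREB-responsive kinase gene Sik1 (16.1), the E-box factor gene Tfap4 (15.5), Ssbp2 (15.5), Cfap20 (14.96) and the nuclease gene Mus81 (14.5). All 10 peaks overlapped H3K4me3, H3K27ac, N-MYC and EZH2 peaks, and none a SUZ12 or H3K27me3 peak. N-MYC fold over these 10 ran from 4.84 at Rfx1 to 15.8 at Ccne2, so the order by p300 was not the order by N-MYC.

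The sequence of p300 promoters can be set beside that of other promoters. RefSeq gave 21237 windows of listed starts of protein-coding genes, of which 8184 had a p300 summit within 1 kb, 2445 had H3K4me3 without p300 and 10608 had neither. The ETS core CGGAAG was found in 39.4% (38.3 to 40.5%) of p300 windows, in 21.9% (20.3 to 23.6%) of H3K4me3 windows without p300, in 6.88% of windows with neither and in 21.1% of all windows. The E-box CACGTG was in 11.7% (11.04 to 12.4%) of p300 windows, 7.81% (6.81 to 8.94%) of H3K4me3 windows without p300 and 7.84% of all. TGACGTCA was in 3.92% (3.52 to 4.36%), 1.84% (1.38 to 2.45%) and 2.24%. GGGCGG was common in both active sets (69.8 and 63.4%, against 46.2% of all windows), and CCAAT was in 39.2, 35.7 and 38.2%.

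Motifs of T-cell and inducible enhancers did not follow that order. TGTGGT, the RUNX-type letters, was in 11.5% (10.8 to 12.2%) of p300 windows and 12.2% (10.95 to 13.5%) of H3K4me3 windows without p300, below the 14.97% of all windows. TGACTCA was in 2.55% and 3.84%, against 4.66% of all, and TATAAA in 5.33% and 6.87%, against 12.6% of all. Base composition moved with these shares: the median number of CpGs per window was 23 with p300, 18 with H3K4me3 alone and 4 with neither, and the median G and C content was 62.3% with p300 and 56.3% over all windows. Its part in the motif shares was not tested. In the 2052 p300 windows with the highest folds (6.64 or more), CCAAT was in 45.3% (43.1 to 47.4%), GGGCGG in 73.9% (71.98 to 75.8%), CGGAAG in 42.5% (40.4 to 44.7%) and CACGTG in 13.8% (12.4 to 15.4%).

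**Figure D2:**
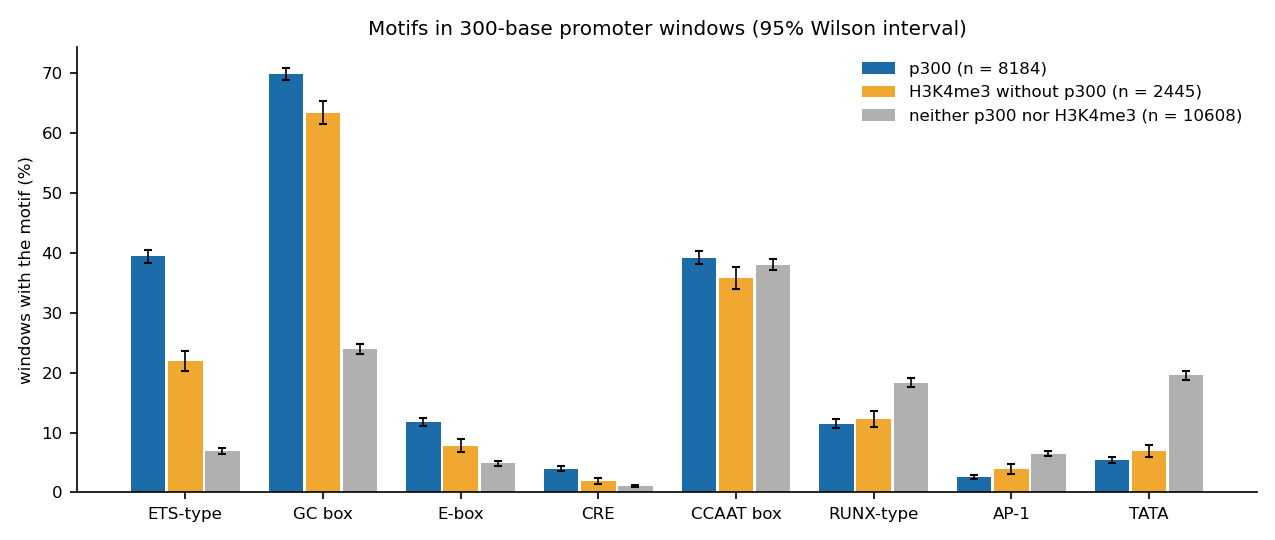
Share of 300-base promoter windows (y axis, %) that hold each of 8 motifs on either strand (x axis), for windows with p300, with H3K4me3 without p300 and with neither; bars are shares and error bars 95% Wilson intervals. The ETS-type core shows the widest gap between p300 windows (39.4%) and H3K4me3 windows without p300 (21.9%).

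Gene lists by function were then read against the 39.1% of all genes. That background includes genes without H3K4me3, and 76.1% of H3K4me3 genes had p300. Among list members with H3K4me3, p300 was at 31 of 31 ribosome biogenesis and 31 of 32 DNA replication genes. It was at 18 of 19 T-cell lineage transcription factor genes and 21 of 24 T-cell receptor complex, coreceptor and signalling genes. It was at 23 of 29 cytokine receptor, JAK and STAT genes and 10 of 13 BCL2 family genes. Notch pathway genes had 11 of 17, and homing, adhesion and checkpoint genes 11 of 16. N-MYC covered 93.8% of the ribosome biogenesis genes. The part of active promoters in the list shares was not tested. Growth and proliferation genes were mostly covered. Of 32 ribosome biogenesis genes, 31 had a p300 promoter peak (96.9%, 84.3 to 99.4%) with a median fold of 7.38, above the 5.27 of all p300 genes. Gar1, a component of the H/ACA small nucleolar ribonucleoprotein, led with 14.2, followed by Nop14 (9.16) and Nolc1 (9.12). Npm1, for nucleophosmin, was the member without one; its nearest p300 summit lay 1.65 kb from a start. DNA replication genes were covered in 31 of 32 (median 5.89), led by the clamp loader genes Rfc5 (9.36) and Rfc1 (8.14) and the helicase gene Mcm4 (8.13), with the X-linked Pola1 left out. Cytosolic aminoacyl tRNA synthetase genes had 19 of 20, led by Vars (9.49), Tars (8.25) and Qars (7.51), with Rars left out.

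Ribosomal protein genes had 77 of 84 for the cytosolic and 73 of 78 for the mitochondrial ribosome, with median folds of 5.90 and 4.998. Rpl13a (8.997), Rps18 (8.95) and Rpl14 (8.87) led the former. Mrpl34 (8.63), Mrpl18 (8.62) and Mrpl41 (8.5001) led the latter, and Mrps25, Mrpl4, Mrpl3, Mrpl28 and Mrps18a had no promoter peak. Genes named as translation initiation factors had 46 of 56 (median 6.02), led by Eif4a3 (12.4), Eif2s1 (11.4) and Eif2ak3 (9.87). Members entered this list by name, and not all are initiation factors. Eif2ak3, for example, is a kinase of one. Complex I subunits had 30 of 38 (median 4.90), led by Ndufb5 (8.49), Ndufv2 (7.88) and Ndufa7 (6.77). Proteasome subunits had 34 of 39 (median 5.64), led by Psmd5 (8.38), Psmc2 (7.71) and a tie of Psmc5 and Psmd7 (7.51). Among the 5 without one were Psmb11 and Psma8, known from thymic epithelium and testis, and the others were Psmb10, Psmd2 and the X-linked Psmd10.

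Of 32 cyclin, CDK, E2F and CDK inhibitor genes, 28 had a promoter peak (median fold 5.88). Ccne2 (16.4), E2f3 (9.62) and Cdk4 (9.58) led. The 4 without were the D-type cyclin gene Ccnd1 and the inhibitor genes Cdkn2b, Cdkn1c and Cdkn1a. H3K27me3 was called at the starts of Cdkn2b (fold 5.74), Cdkn1c (3.81) and Cdkn1a (12.6), and at 19.5% of all genes. It was not called at Ccnd1. Members with a p300 promoter peak that also had H3K27me3 were E2f8 (4.70) and Ccnd2 (4.20). H3K4me3 was also called at Cdkn2b (5.96) and Cdkn1a (10.9), and H3K27ac at Cdkn1a (3.95). The nearest p300 summit to Cdkn1a lay 1.65 kb from a start.

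Factors that respond to signals and are known to bring in p300 or CBP had 32 of 37 members with a promoter peak (86.5%, 72.0 to 94.1%) and a median fold of 6.45. The AP-1 and ATF genes Junb (11.1), Atf2 (10.9) and Jund (10.5) led, followed by Hif1a (9.62), Mef2d (9.12), Atf4 (8.51) and Nfatc3 (8.38). Creb1 had 7.26, the NF-kappaB gene Rela 7.13 and Smad3 6.89. Immediate early genes were spread over the range, from Junb through Egr1 (7.51), Nr4a2 (7.38) and Jun (6.02) to Fos (5.64), Fosb (4.34) and Nr4a1 (4.12). Nfkb1, Nr4a3, Irf4, Nfatc1 and Fosl1 had none at the start; Nfatc1 nevertheless held 9 p300 peaks in its body (highest fold 5.40) and Nfkb1 held 4 (5.96).

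The acetylation machinery itself was marked in 28 of 37 members (75.7%, 59.9 to 86.6%; median fold 5.69). The bromodomain gene Brd2 was highest (9.79), then Brd8 (8.87), Hdac4 (8.13) and the acetyltransferase gene Hat1 (7.75). Ep300, which encodes p300, had a single peak of fold 6.76 and its paralogue Crebbp a single one of 4.90. Kat2a (3.16) and Hdac3 (3.12) were lowest. Ncoa1, Ncoa3, Sirt6, Hdac2, Hdac5, Hdac6, Hdac8, Hdac9 and Hdac11 had no promoter peak, and H3K4me3 was called at all of these but Hdac9.

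Polycomb complex genes had 29 of 30, with a median fold of 5.89. Pcgf5 (8.13), Cbx8 (7.84) and Rbbp4 (7.74) led, Suz12 had 6.89, Ezh2 6.26 and Eed 6.02, and Pcgf3 had none. In the MYC, MAX and MXD network 8 of 13 had a peak (median fold 6.75), with an interval of 35.5 to 82.3% that includes the share of all genes. Max, the obligate partner of MYC proteins, led with 11.5, followed by the antagonists Mxd4 (9.86) and Mnt (8.90), and the range ended with Mlx (3.76). Mycl, Mlxipl, Mycn, Mxd3 and Myc had none. The nearest p300 summit lay 307 kb from Mycn, where H3K27me3 was called at the start with fold 21.3, and 1160 kb from Myc. A MYCN transgene has no place on the reference and was not analysed here.

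Counted over all members, with or without H3K4me3, T-cell identity genes were covered less evenly. Of 30 T-cell lineage transcription factors, 24 had a promoter peak (80.0%, 62.7 to 90.5%; median fold 5.49). The E protein gene Tcf3 (10.98), the HMG-box factor gene Lef1 (10.6), Ikzf1 (9.49) and the ETS family gene Gabpa (8.62) led. Gata3 (4.53), Runx3 (4.28) and Bcl11b (3.90), all needed in T-lineage commitment or maturation, were lower, and Id2, known from innate lymphocytes, was lowest (2.46). Fli1, Ets1, Tcf7, Runx2 and Satb1 were among the members with none at a start. The nearest summit lay 1.39 kb from a start for Satb1, 2.11 kb for Tcf7 and 2.37 kb for Fli1. It lay 16.8 kb away for Ets1 and 37.5 kb for Runx2. With a promoter window of 2.5 kb the share of the list was 90.0%.

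Many of these factors held p300 along the gene, with or without a promoter peak. A p300 peak lay in the gene or within 1 kb of it in 43.1% of all protein-coding genes and in 29 of the 30 factors. At least 5 peaks were found in 1.24% of all genes and in 9 of these 30: Elf1 held 9 (highest fold 9.25), Bcl11b 8 (4.53), Ets1 7 (8.75), Tcf7 7 (5.95), Gata3 6 (6.89), Fli1 6 (4.77), Lef1 5, Runx1 5 and Tox 5. Gene length moves with such counts: the median length was 12.1 kb for genes with no p300 peak, 20.4 kb with 1 and 83.4 kb with 5 or more. Its part in these counts was not tested.

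Of 31 genes of the T-cell receptor complex, its coreceptors and its signalling, 21 had a promoter peak (67.7%, 50.1 to 81.4%; median fold 4.92). Folds were moderate, with 6.14 for Lcp2 and Cd247, 5.85 for Cd5, 5.61 for Lck, 5.35 for Zap70 and 5.02 for Cd3e, down to 3.22 for Rasgrp1. Of the 31 genes, 9 held 5 or more peaks, against 1.24% of all genes, among them Cd247 with 9, Csk with 8 and Plcg1 with 7. The coreceptor genes Cd4, Cd8a and Cd8b1, the recombination genes Rag1, Rag2 and Dntt, the pre-receptor gene Ptcra, Cd3g and Cd3d were among those that had none at the start. Cd3d missed the window narrowly: its nearest summit was 1.07 kb from a start, and a peak of fold 8.28 lay in the gene. Nearest summits were 15.7 kb from Cd4, 67.3 kb from Cd8a and 329 kb from Rag1.

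Notch pathway genes had 12 of 24 with a peak (interval 31.4 to 68.6%), which includes the share of all genes. Those with a peak included receptor processing and nuclear components, among them Numb (9.49), Fbxw7 (8.5001), Adam10 (7.01), Rbpj (6.90), Maml1 (6.76), Lfng (5.30), Psen2 (4.69), Notch1 (4.56), Maml3 (4.40), Notch2 (4.22) and Nrarp (3.69). The ligand genes Dll1, Dll4, Jag1 and Jag2, the targets Hes1, Hes5, Hey1, Hey2 and Dtx1, and Notch3, Notch4 and Maml2 had none.

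Cytokine receptor, JAK and STAT genes had 23 of 34 (67.6%, 50.8 to 80.9%) with a median fold of 4.47. The signal transducers were covered most: of the 7 STAT genes present, Stat4 was the one without a peak, and all 4 kinase genes (Jak1 5.77, Jak2 5.40, Tyk2 4.90, Jak3 4.26) had one. Tgfbr2 (6.14) and Stat5b (6.02) led. The receptor genes Il2ra, Il2rb, Il2rg, Il6ra, Il6st, Il7r, Il10ra and Il18r1 and the inhibitor genes Cish and Socs3 had none, and the nearest summit to Il7r was 219 kb away. Homing, adhesion and checkpoint genes had 12 of 24, the same share and interval as the Notch genes, led by Lag3 (6.19), Ccr4 (6.08) and Itga4 (5.89). BCL2 family genes had 11 of 16 (median 5.93), with the pro-death gene Bbc3 (7.24) and the survival genes Bcl2l1 (6.76) and Mcl1 (6.51) highest, Bcl2 at 4.28, and Bok, Hrk, Bcl2l2, Bik and Pmaip1 without a peak.

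Markers of cell types checked the label. Of 13 T-cell markers 9 had a p300 promoter peak, and no promoter peak was called at the 11 B-cell, 14 myeloid or 9 erythroid markers. With the window widened to 2.5 kb the shares were 92.3% of T-cell, 9.09% of B-cell, 11.1% of erythroid and none of the myeloid markers, the B-cell one being Vpreb1 (nearest summit at 1.51 kb) and the erythroid one Klf1. Of 16 thymic epithelial and stromal markers the exception was Ccl25 (7.13), whose peak also lay within 1 kb of a start of Elavl1. The erythroid list had H3K4me3 at 7 of its 9 starts, from 9.38-fold at Alas2 to 19.8-fold at Hbb-bs, and at neither Tal1 nor Epor. Its marker Klf1 had a p300 summit 1.03 kb from its start. The part of erythroid cells in these lists was not tested.

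Several developmental and tissue-restricted families were empty or nearly so. None of 39 Hox, 57 clustered protocadherin, 49 keratin or 1105 olfactory receptor genes had a p300 promoter peak, and Sox4 (4.51) was the one of 19 Sox genes that did. Forkhead genes had 12 of 44 (27.3%, 16.3 to 41.8%, an interval that includes the share of all genes), led by Foxn2 (7.93), Foxk2 (7.63) and Foxh1 (7.58). Genes named Zfp and a number, most of them zinc finger factors, had 177 of 367 (48.2%, 43.2 to 53.3%) with a median fold of 4.53. Among those with H3K4me3, p300 was at 176 of 289, a share below the 76.1% of all H3K4me3 genes. At 364 genes (4.28% of p300 genes) p300 and H3K27me3 summits each lay within 1 kb of a start, which need not be the same. The median p300 fold at these genes was 4.42. Among p300 promoter peaks, 196 (2.03%) overlapped an H3K27me3 peak. H3K27me3 summits were near the start of 19.5% of all genes, and 8.57% of those genes had p300.

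**Figure D3:**
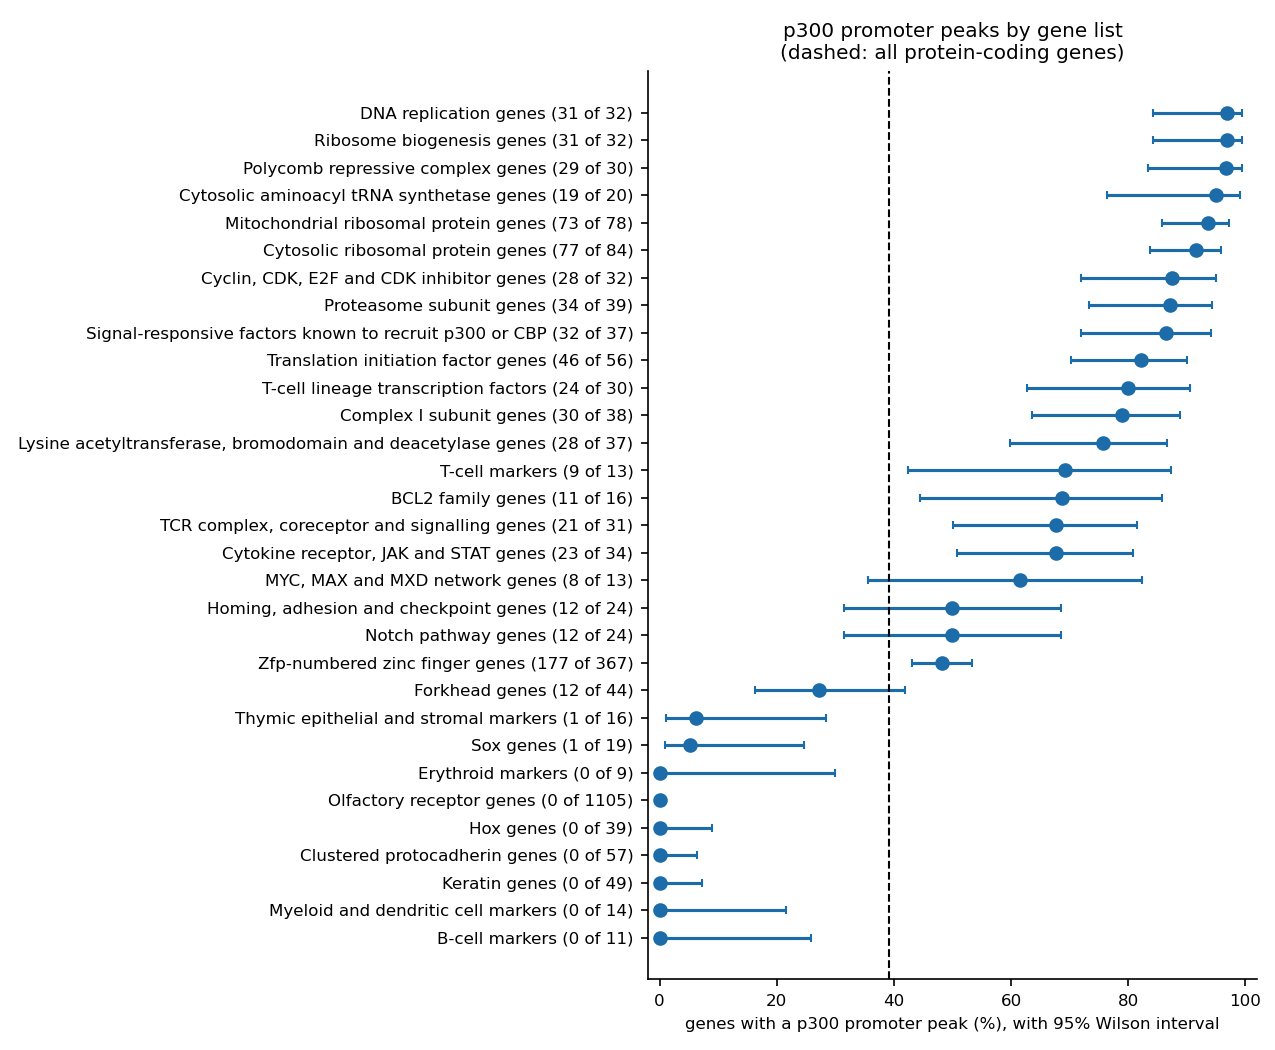
Share of genes with a p300 promoter peak (x axis, %) in 31 gene lists (y axis, with counts); points are shares, bars 95% Wilson intervals, and the dashed line marks all protein-coding genes (39.1%). Ribosome biogenesis and DNA replication genes (31 of 32 each) stand at the top and Hox, keratin, protocadherin and olfactory receptor genes at 0.

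Genes with several p300 peaks were a small group. At least 2 peaks lay in 3566 genes (16.4%), 5 or more in 269 and 10 or more in 17. The 269 became 116 at a q-value of at most 1e-05, 47 at a fold of at least 4 and 22 when peaks within 3 kb were merged. Fam107b, a gene of little-known function, held the most, 16 peaks in 77.3 kb. Maml3, a Notch coactivator gene, held 15 in 418 kb, and the cyclin-dependent kinase gene Cdk6 and the zinc finger gene Zbtb16 (PLZF) held 13 each. Foxn3, Stat5b, Septin9 and Msra held 12, and Itpkb, Prkch, Pde4d, Spata13, Zmiz1 and Ubash3b 11. Tex14, one of 3 genes with 10, completed the 15. Per length Fam107b (20.2 per 100 kb) and Stat5b (14.9) were the densest of the 15, and Pde4d, 1302 kb long, the sparsest (0.844).

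The peaks inside these genes were grouped. In Fam107b they fell between 5.72 and 48.4 kb from the 5′ end of the gene, with a leading peak of fold 8.25 at 10.2 kb, 3 peaks from 21.7 to 22.7 kb, 3 from 26.1 to 27.2 kb and 5 from 44.3 to 48.4 kb. In Cdk6, 3 peaks lay within 5.26 kb of the 5′ end and 9 between 157 and 174 kb, where the strongest of the gene (9.62 at 157 kb) overlapped H3K27ac and N-MYC but not H3K4me3. In Stat5b, whose product carries cytokine signals, 6 peaks lay from 34.9 to 44.4 kb from the outer 5′ end and 5 from 7.75 to 12.9 kb. Both stretches hold a listed start of Stat5b, and 3 of its 12 peaks were promoter peaks. H3K4me3 peaks overlapped from 2 of 12 p300 peaks in Msra to 10 of 12 in Foxn3.

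**Figure D4:**
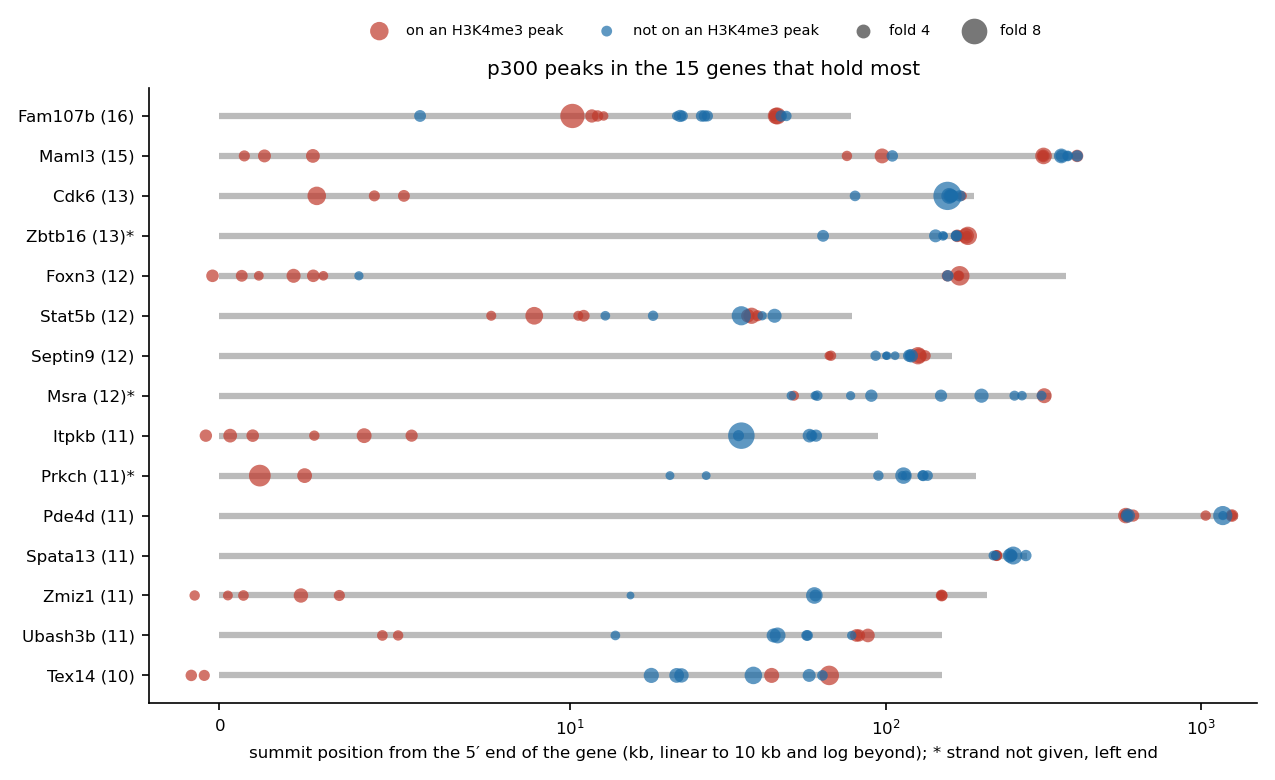
Positions of p300 summits (x axis, kb from the 5′ end, linear to 10 kb and logarithmic beyond) in the 15 genes that hold most (y axis, number of peaks in brackets); grey bars are the genes, circle area grows with fold enrichment and colour tells whether the peak overlaps H3K4me3. Zbtb16, Msra and Prkch (marked with an asterisk) have no given strand, so their positions run from the left end of the gene instead. In Cdk6 the strongest peak (fold 9.62) lies 157 kb into the gene without H3K4me3.

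Counting each peak for its nearest gene start gave another order. Dad1, a subunit of oligosaccharyltransferase, had 22 peaks, of which 1 lay in the gene (fold 9.07); it neighbours the T-cell receptor alpha locus. Fam107b and Stard3nl had 18 each, Stard3nl being the neighbour of the T-cell receptor gamma locus, and Chd2 had 17, Zfp217 15 and Ubash3b 13. Gm40363 also had 13, at low folds of up to 2.998, in a stretch of chromosome 6 with many near-identical Gm records and 4.5S RNA copies, where reads may not place uniquely. Myb, Stat5b, Zbtb16, Septin9 and Eapp had 12 each.

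The receptor loci were looked at after these counts were seen. On GRCm38.p6 the Tra and Trd segments span chr14:52427967-54224198 and held 24 p300 peaks (13.4 per Mb, highest fold 6.19), against 6.44 per Mb over the autosomes. Trg, at chr13:19178042-19352343, held 12 (68.8 per Mb, 7.004), and Trb, at chr6:40891296-41558371, held 7 (10.5 per Mb, 8.87). All p300 peaks in these 3 loci overlapped H3K27ac, as did 97.4% of all p300 peaks and 95.7% of intergenic ones. Of the immunoglobulin loci Igh held 2 (0.726 per Mb), and Igk and Igl none. The widest peak of the list, 12038 bp, was in Trg, and the next widest were at Gfi1 (9825 bp), Elf1 (7873 bp) and Ikzf1 (7476 bp).

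Peaks outside promoters were also chained where neighbours lay within 12 kb, a step chosen after seeing the data. The 6003 peaks formed 3752 chains, of which 2468 were single peaks and 116 had 5 or more. The longest by count, 15 peaks in 46.0 kb, covered the Traj segments before Dad1, and 10 of its peaks overlapped H3K4me3. A chain of 12 peaks in 26.0 kb lay between Nanos3 and Zswim4 and held the strongest intergenic peak of the list (16.7); the microRNA genes Mir23a, Mir27a and Mir24-2 lie there. Chains of 11 lay in Fam107b, between Chd2 and Fam174b, and between Eapp and Snx6. A chain of 10 lay in Fyb, an adaptor gene of T-cell receptor signalling, and chains of 9 included those in Cdk6, Zbtb16 and Septin9 and in Vmp1 beside Mir21a. A pair of further chains of 9, with folds of at most 2.998 and 2.78, lay in the multi-copy stretch beside Ezh2.

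The strongest single peaks away from promoters were named by nearest gene start, which need not be the gene they act on. In gene bodies these were Usp54 (12.8), the mitochondrial carrier gene Ucp2 (11.3), the clock repressor gene Nr1d1 (11.2), Gm34296 (10.4), Lcp1 (9.99), Ing2 (9.87), Mnt (9.78), Actb (9.74), Poli (9.62) and the Cdk6 peak, nearest to Fam133b. Several lay just past the 1 kb limit, such as Gm34296 at 1.07 kb and Nr1d1 at 1.29 kb. Between genes they were nearest to Nanos3 (16.7, at 22.1 kb), Ccne1 (15.3, at 22.3 kb), Cstad (13.9), Zfp395 (12.3), Fos (12.2, at 18.5 kb), Trappc9 (12.1), Zfat (11.98), Tex44 (11.7), Tuba3a (11.5) and Cirbp (11.5). All 10 intergenic ones overlapped H3K27ac and 9 overlapped H3K4me3.

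Some intergenic peaks met noncoding genes, which the classes left aside. Of the 2334, 342 (14.7%, 13.3 to 16.1%) lay within 1 kb of the start of a long noncoding RNA gene, and 73.7% of these overlapped H3K4me3, against 41.8% of the rest. Over all p300 peaks, 1542 of 12639 long noncoding RNA genes (12.2%) were overlapped, 75 of 1228 microRNA genes (6.11%) and 33 of 403 tRNA genes (8.19%), but 61 of 9854 pseudogenes (0.619%).

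Beside microRNA genes, the strongest intergenic p300 peak lay just before the cluster that begins with Mir17, at chr14:115039934-115043378, with fold 9.90 and an N-MYC peak of fold 30.8, the highest N-MYC fold outside genes. The p300 peak also overlapped peaks of the other 5 lists, SUZ12 and H3K27me3 among them, which met 1.63 and 1.67% of all intergenic p300 peaks. The Mir17 cluster, known as an oncogenic target of MYC proteins, encodes 2 seed groups shown here, since a seed (bases 2 to 8, in capitals) sets which messages a microRNA pairs with. miR-17 and miR-20a share AAAGUGC, and miR-19a and miR-19b share GUGCAAA, while miR-18a differs from the former by its own seed. A peak of fold 9.74 covered Mir132 and Mir212, CREB-responsive genes whose 3p products share the seed AACAGUC. Mature sequences are from RefSeq, GRCm38.p6, plus strand of chromosomes 14 and 11.
mmu-miR-17-5p: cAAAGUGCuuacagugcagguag
mmu-miR-20a-5p: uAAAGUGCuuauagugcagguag
mmu-miR-18a-5p: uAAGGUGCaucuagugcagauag
mmu-miR-19a-3p: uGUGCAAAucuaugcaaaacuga
mmu-miR-19b-3p: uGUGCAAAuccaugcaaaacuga
mmu-miR-132-3p: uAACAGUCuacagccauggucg
mmu-miR-212-3p: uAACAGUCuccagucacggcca

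These hairpins were picked after seeing the peaks. Other microRNA genes within 1 kb of an intergenic p300 peak included Mirlet7i (fold 8.13), Mir92b (7.43), Mir142, a blood-cell microRNA gene (4.91), Mir23a (4.53) and Mir21a (4.40).

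Density along the genome differed between chromosomes. The autosomes held 6.44 p300 peaks per Mb, taken over the span between the outermost annotated genes, and 75.2 per 100 protein-coding genes. Chromosome 11 was highest with 1370 peaks or 11.5 per Mb (exact Poisson interval 10.9 to 12.2), then 19 (9.20, 8.44 to 10.02) and 17 (8.87, 8.28 to 9.51), and chromosome 18 was the lowest autosome with 374 peaks or 4.27 (3.85 to 4.73). Density followed gene density, with a Spearman correlation of 0.882 over the 19 autosomes, given as a description. Per gene the order changed: chromosome 12 had 97.1 peaks per 100 genes, chromosome 11 had 85.5 and chromosome 7, which holds many olfactory receptor genes, 51.8.

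The X chromosome stood below the autosomes on each scale, with 176 peaks, 1.05 per Mb (0.901 to 1.22) and 18.3 per 100 genes. A p300 promoter peak was called at 12.9% of its genes, against 40.8% of autosomal genes. X-linked list genes with one included Rpl10 (5.40), Dkc1 (5.02), Ndufb11 (4.15) and Rbbp7 (3.64), and those with none included Rps4x, Pola1, Il2rg and Hdac6. The other active lists were also sparse on X: it held 0.937 N-MYC, 2.77 H3K4me3 and 6.92 H3K27ac peaks per Mb, against 2.81, 4.91 and 22.1 on the autosome with the fewest of each. The Y chromosome had 3 peaks.

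**Figure D5:**
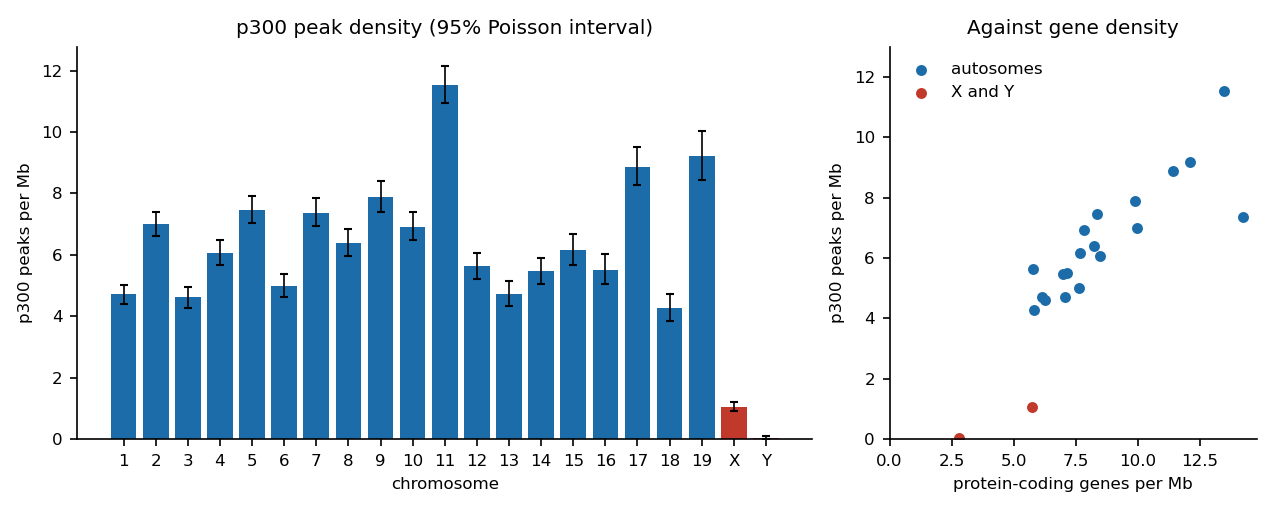
Left, p300 peaks per Mb (y axis) by chromosome (x axis) with exact 95% Poisson intervals; right, the same density (y axis) against protein-coding genes per Mb (x axis), 1 point a chromosome. Chromosome 11 is highest (11.5 per Mb) and X (1.05 per Mb) lies below every autosome.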

How the data were processed

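Chromatin from lymphoma cells was profiled by ChIPmentation with 1 library per antibody. FastQC, Bowtie2, SAMtools, MACS2 and deepTools and the builds mm10 and GRCm38 are named, without versions, per the submitters' processing notes; controls, filters and pooling are not given in the sources used here. Each peak as deposited has a fold enrichment over background (a ratio), a −log10 p-value and −log10 q-value, and a score that was not used. The smallest −log10 q-value in the p300 list as deposited was 2.02, so the list ends near a q-value of 0.01. Peaks were counted once per chromosome, start and end.

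Gene positions, promoter windows and microRNAs came from RefSeq, GRCm38.p6, the build of the files. Starts were those listed for 17491 protein-coding genes together with the 5′ end of the gene; for the 4284 genes without a given strand, all of chromosome 18 and part of 15 among them, either end served, so a peak at a 3′ end can count as a promoter peak there (33.1% of these genes had one, against 40.5% of the others). On the autosomes and X, 108 protein-coding records ending below 3 Mb, where no list has a peak, were left out. A peak was shared when it overlapped another by at least 1 bp. Python 3.11.15, pandas 2.3.3, numpy 2.4.6, scipy 1.17.1 and matplotlib 3.10.9 were used; the steps were tested on simulated data. No exon annotation or genome was used here.

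The members and the gene lists were chosen with earlier results of these data known. Named genes were all members of the T-cell, Notch, cytokine receptor, acetyltransferase, signal-responsive, MYC, Polycomb, BCL2 and cell-type marker lists where space allowed, the 3 strongest members of other lists and their members without a peak where these were 5 or fewer, the 15 genes with most peaks, the 10 strongest peaks of each class and the 10 genes with most peaks by nearest start. A few genes that this rule names are not reported here. Alternatives were a stricter q-value or fold, other promoter windows, position by overlap, merged peaks, all annotated genes, other counting windows and another overlap rule.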

Additional observations from a re-analysis of the deposited data

How the results depend on the processing

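The share of p300 peaks at promoters (61.6%) was 66.5% at a q-value of at most 1e-05 (12116 peaks), 70.4% at a fold of at least 4 (9839 peaks), 49.5 and 70.8% with promoter windows of 0.5 and 2.5 kb, 64.7% by any overlap, 67.9% with peaks within 3 kb merged (10671 peaks) and 66.3% with all annotated genes. Chosen after seeing the data, it was 52.1% with genes of a listed start only, where fewer genes could be hit, and 55.1% with the outer ends of every gene as starts. In the same order, leaving out merging and all annotated genes, the share of genes with a promoter peak (39.1%) became 36.0, 32.8, 35.8, 40.8, 40.0, 40.5 and 36.8%. The number of the 31 gene lists above the share of all genes was 21, and 20 or 21 under each of these alternatives. Genes with 5 or more peaks (269) fell to 116 at the stricter q-value, 47 at the fold of 4 and 22 after merging, and were 710 within 10 kb of the gene: this count depends on how peaks are cut. The density on X was 16.3% of that on autosomes (exact Poisson interval 13.99 to 18.9%), 24.3% per gene and 13.2% at the fold of 4. N-MYC overlap at promoter, gene body and intergenic p300 peaks was 70.9, 36.5 and 39.8% at the stricter q-value, 75.04, 42.4 and 44.2% at the fold of 4, and 60.5, 26.1 and 29.9% when at least 50% of the shorter peak had to be covered. CGGAAG was in 40.5% of p300 windows at the fold of 4 and in 41.3 and 38.1% with windows of 0.5 and 2.5 kb. Of 216 shares of single gene lists under alternatives, 202 stayed within the main interval. Those intervals are wide for short lists, such as 35.5 to 82.3% for the MYC network, so staying within them says little. Of the main results under alternatives, 8 values stayed within the limits set around the main value and 34 moved. No paired analysis was possible because each antibody had 1 library and no result comes from a test. Read depth is unknown, so genes and lists without a peak may lie below the authors' threshold.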
